A study of Mus musculus with 5 samples.

Results

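The interferon response genes are a list of 39 genes that cells switch on after exposure to interferon, taken by symbol and not by any measured value. A gene entered when a probe set of the array carried its symbol and no other, and the probe set with the highest mean over the 5 arrays stood for the gene. By that rule 37 of the 39 genes had a value, of 18193 genes in all. Ifi44 and Isg15 had none and were not analysed here. The genes were read in 2 samples from MSI2-inducible mice and 3 from control rtTA mice, all C57BL/6, per the labels. MSI2, or Musashi 2, binds RNA and controls its translation, and rtTA is the transactivator through which doxycycline switches on inducible transgenes. The labels used here give neither the transgene's promoter, nor the mice's age or sex, nor whether or how long doxycycline was given. Each sample label calls the cells Sca1-positive stem and progenitor cells (LSK), while the series text calls them Sca1-negative (LK), so the gate is uncertain.

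Interferons are secreted alarm proteins. Type I interferons signal through the receptor chains Ifnar1 and Ifnar2 to a complex that holds Stat2 and Irf9, which binds the interferon-stimulated response element and turns on classical antiviral genes. Interferon gamma signals through Ifngr1 and Ifngr2 to factors that bind the gamma-activated site, and it is the stronger inducer of many GTPases of the Gbp and Irg families and of antigen processing genes. The programmes overlap, and most of these genes answer both kinds of interferon to some degree. In bone marrow, interferon is known to bring resting stem cells into cycle and to raise Sca1 on their surface, and stem cells are known to keep part of the programme on without infection. In this account 30 genes are called classical antiviral and 9 gamma-responsive (Irf1, Gbp2, Gbp3, Iigp1, Igtp, Irgm1, Psmb8, Psmb9 and Tap1).

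Levels are given as log2 intensity and each difference as MSI2-inducible minus control, so that a difference of 1 is a doubling of signal. The stem and progenitor markers Cd34 and Kit were well above the median of all probe sets (5.57) on all 5 arrays, with Cd34 at 10.20 and 11.00 in MSI2-inducible and 10.37 to 10.87 in control arrays, and Kit at 8.80 and 9.50 against 9.19 to 9.66. Of 8 such markers measured, 6 were lower on average and 2 (25%) higher, against 50.4% of all genes higher. None passed limma's test over all genes. Mecom (9.13 and 9.52 against 9.84 to 9.98) and Slamf1 (5.57 and 7.22 against 7.36 to 7.98), a pair of stem cell genes, lay below all control arrays on both MSI2-inducible arrays. That was 2 of 8 (25%), against 9.39% of all genes. The other markers overlapped between groups, with differences of -0.26 (Hlf) to 0.17 (Flt3). Of 10 measured markers of mature neutrophils, 7 were brighter than the median probe set in both groups. These 10 markers set MSI2-inducible replicate 1 apart. Their mean level over 10 genes was 11.03 and 8.02 in MSI2-inducible replicates 1 and 2, against 8.16 to 9.19 in control arrays. Whether each array is a mouse of its own is not stated in the labels. The p-values therefore cover the spread among these arrays alone, and that spread may be technical. In bulk RNA, fewer cells with a programme and less RNA of it per cell cannot be told apart.

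Ifi44l rose in MSI2-inducible cells, and it was the only one of the 37 genes to pass the test over all genes. Several other classical antiviral genes were higher on both MSI2-inducible arrays without passing, among them Irf9, Oasl2, Ifit3, Ifi27 and Bst2. Others of the same class, such as Ifit1, Ifih1 and Rsad2, overlapped the control arrays, with differences near 0. As a class, the 9 gamma-responsive genes did not separate the genotypes, with a median difference of -0.00046. All 9 were higher on MSI2-inducible replicate 2 than on replicate 1, by 0.07 (Tap1) to 1.16 (Gbp2). Of the 37 genes, 1 was higher and 0 were lower at a limma adjusted p of 0.05, against 0.0165% and 0.0055% of all genes. At an unadjusted p under 0.05, 7 were higher and 0 lower, against 2.87% and 2.77% of all genes. Both MSI2-inducible arrays lay above all 3 control arrays in 14 genes (37.8%) and below them in 2 (5.41%), against 9.27% and 9.39% of all genes. The median difference was 0.26 over the 37 genes and 0.0019 over all genes. These counts describe a list that was chosen with earlier results known.

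**Figure D1:**
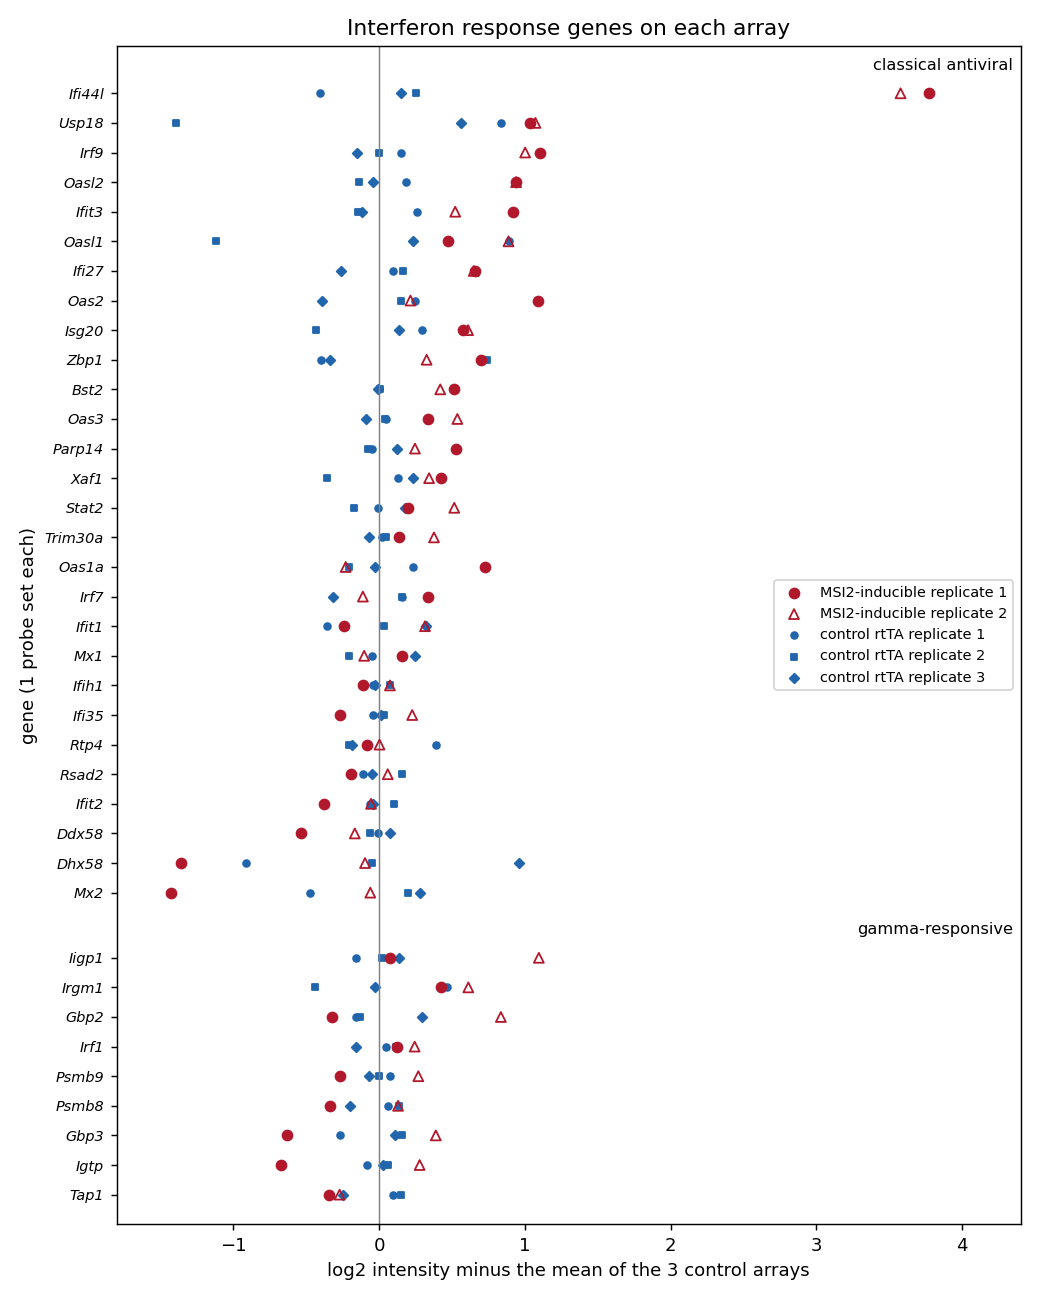
Log2 intensity of each of the 37 measured genes on each array, minus the mean of the 3 control arrays (x axis), with MSI2-inducible arrays in red and control arrays in blue. Ifi44l stands apart at 3.77 and 3.58, and among the gamma-responsive genes the open triangles of MSI2-inducible replicate 2 lie to the right of the filled circles of replicate 1.

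Ifi44l is strongly induced by type I interferon. Its intensity was 6.39 and 6.20 in MSI2-inducible replicates 1 and 2, against 2.22, 2.88 and 2.77 in control replicates 1, 2 and 3. The groups lay far apart. The difference was 3.67 (SE 0.25, 95% interval 3.06 to 4.29), a 12.8-fold ratio of intensities, with a limma adjusted p of 0.0324, the fourth smallest p of all genes. The control mean exceeded only 10.5% of probe sets, so the control level is near the floor of the array and the size of the difference is uncertain. The gene has 2 further probe sets. The second read 6.68 and 5.56 in MSI2-inducible arrays, against 2.44, 2.61 and 2.58 in control arrays, a difference of 3.57. The third read 2.47 and 2.88 against 2.43, 2.36 and 2.00, a difference of 0.41, and was dim on every array. The call was lost, with an adjusted p of 0.178 to 0.561, when any 1 array was left out, while the difference stayed between 3.47 and 3.80. Averaging the 3 probe sets gave a difference of 2.55 (limma adjusted p 0.0264). The call was also lost with array weights (0.0773) and when every probe set was tested on its own (0.0651).

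**Figure D2:**
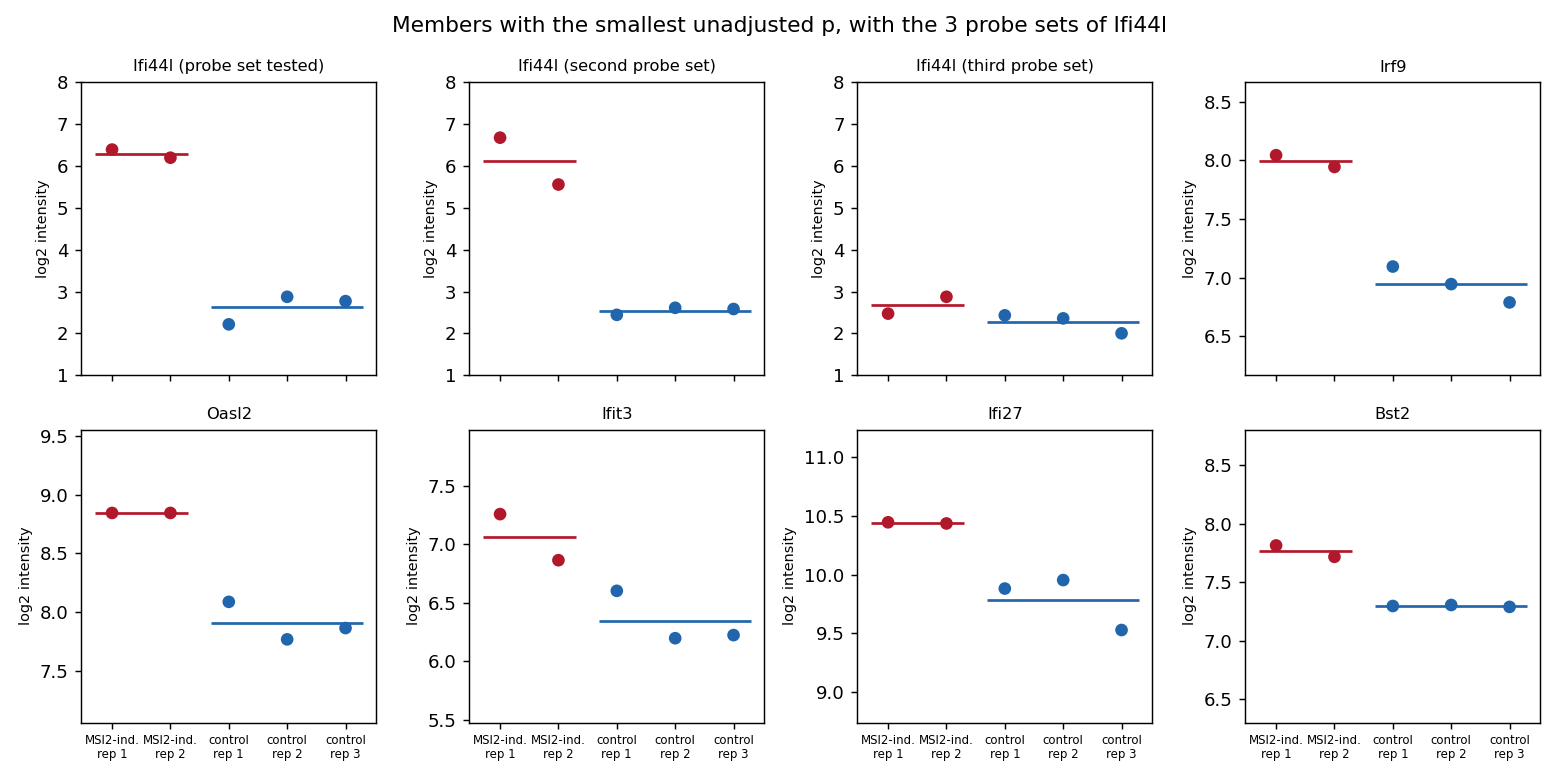
Log2 intensity on each array (points) and group mean (lines) for the 3 probe sets of Ifi44l, which share an axis from 1 to 8, and for Irf9, Oasl2, Ifit3, Ifi27 and Bst2, whose panels each span 2.5 log2 units. In all but the third Ifi44l probe set the red MSI2-inducible points stand clear above the blue control points.

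Among the genes that carry or brake the signal, all 5 were higher on average and none passed the test. Irf9, a DNA-binding part of that complex, read 8.04 and 7.94 in MSI2-inducible arrays, against 7.09, 6.94 and 6.79 in control arrays. Its lowest MSI2-inducible value lay above the highest control value. The difference was 1.05 (SE 0.18, 95% interval 0.61 to 1.49), with a limma adjusted p of 0.401. Stat2, its partner in the complex, differed by 0.36 (95% interval -0.14 to 0.85). Its second probe set differed by -0.06, and averaging the pair gave 0.15.

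Usp18 removes the ubiquitin-like protein Isg15 from its targets and shuts off the type I receptor. It read 6.13 and 6.18 in MSI2-inducible arrays, against 5.94, 3.71 and 5.66 in control arrays. The groups did not overlap, but control replicate 2 alone made most of the difference of 1.05 (95% interval -0.58 to 2.69, limma adjusted p 0.916), which was 0.35 without that array. Irf1, which drives interferon gamma targets, read 10.66 and 10.77 in MSI2-inducible arrays, against 10.57, 10.65 and 10.37 in control arrays. The gap between its groups was narrow, and its difference was 0.18 (95% interval -0.25 to 0.62). Irf7, the factor that amplifies type I interferon production, differed by 0.11 (95% interval -0.49 to 0.71).

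Among the Oas genes, all 5 were higher on average. Oas enzymes sense double-stranded RNA and activate an RNA-cutting nuclease. Oasl2 read 8.85 on both MSI2-inducible arrays, against 8.09, 7.77 and 7.86 in control arrays. The groups stood clear of each other. The difference was 0.94 (SE 0.18, 95% interval 0.50 to 1.38), with a limma adjusted p of 0.482. Oas3 read 8.05 and 8.25 in MSI2-inducible arrays, against 7.76, 7.75 and 7.62 in control arrays, and the groups differed by 0.44 (limma adjusted p 0.883). Its groups did not overlap either. Oas1a, an RNA-sensing enzyme, read 9.82 and 8.86 in MSI2-inducible arrays, against 9.33, 8.88 and 9.07 in control arrays, so the 2 MSI2-inducible arrays lay on both sides of the controls. Oas2 (0.65) and Oasl1 (0.68) overlapped between groups, and their differences were 0.21 without MSI2-inducible replicate 1 for Oas2 and 0.12 without control replicate 2 for Oasl1.

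The 3 Ifit genes, whose proteins bind viral RNA, differed among themselves. Ifit3 read 7.26 and 6.86 in MSI2-inducible arrays, against 6.60, 6.20 and 6.22 in control arrays, with no overlap. Its difference was 0.72 (SE 0.22, 95% interval 0.17 to 1.27), with a limma adjusted p of 0.870. Ifit2 read 8.47 and 8.79 in MSI2-inducible arrays, against 8.78, 8.95 and 8.81 in control arrays, and overlapped. Ifit1 differed by 0.04 (95% interval -0.65 to 0.73). The 3 genes lie close together on chromosome 19 and are known to be induced together.

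The promoters of the 4 genes with the smallest p that the RefSeq promoter table holds follow, because these genes led the list and because the interferon factors named above bind at such sites. Each runs from 250 bases before to 50 after the gene start, 5′ to 3′ on the gene's strand, in build GRCm38.p6. Capitals mark a match on either strand to the paired IRF core of the interferon-stimulated response element, searched as GAAANNGAA, or to the gamma-activated site, searched as TTCNNNGAA. The motifs share letters and could overlap. The sequences are Ifi44l (chr3:151762842-151763141, minus strand), Irf9 (chr14:55603735-55604034, plus strand, the first of 2 entries), Oasl2 (chr5:114896684-114896983, plus strand) and Ifit3 (chr19:34583279-34583578, plus strand).
Ifi44l: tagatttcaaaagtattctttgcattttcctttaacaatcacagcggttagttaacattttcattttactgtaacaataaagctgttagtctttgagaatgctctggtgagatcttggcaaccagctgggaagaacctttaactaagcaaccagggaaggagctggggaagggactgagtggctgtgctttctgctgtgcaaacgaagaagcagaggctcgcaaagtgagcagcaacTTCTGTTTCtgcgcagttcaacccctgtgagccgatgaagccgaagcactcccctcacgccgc
Irf9: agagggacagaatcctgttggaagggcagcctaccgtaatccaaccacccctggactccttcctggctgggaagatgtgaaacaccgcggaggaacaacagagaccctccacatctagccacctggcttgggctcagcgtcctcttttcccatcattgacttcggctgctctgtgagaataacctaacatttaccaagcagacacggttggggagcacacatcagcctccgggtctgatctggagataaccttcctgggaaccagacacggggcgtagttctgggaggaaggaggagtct
Oasl2: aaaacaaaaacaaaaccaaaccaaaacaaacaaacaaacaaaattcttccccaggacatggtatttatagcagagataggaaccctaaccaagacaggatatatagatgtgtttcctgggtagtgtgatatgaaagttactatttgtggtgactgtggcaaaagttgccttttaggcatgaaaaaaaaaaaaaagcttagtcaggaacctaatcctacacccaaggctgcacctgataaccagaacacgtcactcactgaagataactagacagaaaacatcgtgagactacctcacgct
Ifit3: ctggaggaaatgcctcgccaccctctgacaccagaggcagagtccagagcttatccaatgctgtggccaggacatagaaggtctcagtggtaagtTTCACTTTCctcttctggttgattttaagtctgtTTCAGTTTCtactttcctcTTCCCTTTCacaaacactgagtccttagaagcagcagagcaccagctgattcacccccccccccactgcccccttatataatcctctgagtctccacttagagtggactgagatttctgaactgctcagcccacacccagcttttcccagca

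The Ifi44l promoter held 1 match to the response element core, 13 bases before the gene start. The Ifit3 promoter held 3, which began 155, 121 and 102 bases before the start. Neither Irf9 entry and not the Oasl2 entry held either motif, which says only that these letters are not in these windows. Of the 39 genes 29 had an entry, and 17 (58.6%) held the response element core, against 9.76% of all 27025 genes in the table. The core stood in 13 of 21 classical antiviral genes (61.9%) and in 4 of 8 gamma-responsive genes (50%). The gamma-activated site stood in 5 (23.8%) and 3 (37.5%) of them, against 9.55% of all genes. The list was made of interferon-induced genes, so these shares describe the list and say nothing about these arrays. Genes with and without the core thus stood among those with the smallest p, and Ifit1, with 3 matches, had a difference near 0.

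The nucleic acid sensors did not share a direction. Ddx58, which encodes the RNA sensor RIG-I, read 7.62 and 7.99 in MSI2-inducible arrays, against 8.15, 8.09 and 8.23 in control arrays. It lay below all control arrays on both MSI2-inducible arrays, with a difference of -0.35 (95% interval -0.82 to 0.11, limma adjusted p 0.912). Its second bright probe set read 7.05 and 7.58 in MSI2-inducible arrays, against 6.85 to 7.49 in control arrays, a difference of 0.13. The Ddx58 difference was -0.20 with the mean of probe sets and -0.17 without MSI2-inducible replicate 1. Ifih1, the related sensor MDA5, differed by -0.02 (95% interval -0.43 to 0.39). Dhx58, the third sensor of that family, gave opposite answers by probe set. The one tested differed by -0.73, and the others by -1.71 and 1.12 (unadjusted limma p 0.0213 and 0.0205 over probe sets). Zbp1, a sensor of left-handed nucleic acid that can trigger cell death, differed by 0.51. Its second probe set read 7.02 and 7.20 in MSI2-inducible arrays, against 6.07, 6.28 and 5.51 in control arrays, and the groups differed by 1.15 (limma adjusted p 0.634 over probe sets).

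Of 6 measured antiviral effectors, 4 were higher and 2 lower. Isg20, an RNA-degrading nuclease, read 9.62 and 9.65 in MSI2-inducible arrays, against 9.34, 8.61 and 9.18 in control arrays, and the groups differed by 0.59 (limma adjusted p 0.903), or by 0.38 without control replicate 2. Bst2, or tetherin, holds budding viruses on the cell surface. It read 7.81 and 7.72 in MSI2-inducible arrays, against 7.30, 7.31 and 7.29 in control arrays. The control values were nearly equal and lay below both others, with a difference of 0.47 (95% interval 0.08 to 0.86, limma adjusted p 0.870). Trim30a differed by 0.26 without overlap between groups. Mx1 differed by 0.03 (95% interval -0.49 to 0.55) and Rsad2, or viperin, by -0.07 (95% interval -0.52 to 0.39). The 2 other Rsad2 probe sets differed by 0.73 and 0.62. Mx2 differed by -0.74 (-0.06 without MSI2-inducible replicate 1) and, like Mx1 and Oasl1, was dimmer than the median probe set in both groups, where differences are uncertain.

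Of the other interferon-induced members besides Ifi44l, Ifi27 read 10.45 and 10.44 in MSI2-inducible arrays, against 9.88, 9.95 and 9.53 in control arrays. Ifi27 is a small membrane protein of mitochondria and the nuclear envelope. Its groups did not overlap, and the difference was 0.65 (SE 0.20, 95% interval 0.17 to 1.14, limma adjusted p 0.859). Its second probe set differed by 0.43. Xaf1, which antagonises an apoptosis inhibitor, differed by 0.38 and Parp14, an ADP-ribosyl transferase, by 0.39, both without overlap. Xaf1 differed by 0.20 without control replicate 2. For Parp14 the second probe set gave -0.34, and averaging the pair gave 0.022. Ifi35 read 10.55 and 11.05 in MSI2-inducible arrays, against 10.78, 10.85 and 10.83 in control arrays, so one array lay below the controls and one above. Rtp4, a chaperone of receptors, differed by -0.04 (95% interval -0.63 to 0.55).

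The gamma-responsive genes behaved differently from the classical class on the 2 MSI2-inducible arrays, a comparison made after their values were seen and given with no test. All 9 were higher in MSI2-inducible replicate 2 than in replicate 1, as were 42.2% of all genes and 15 of the 28 classical genes. In replicate 1, 6 of the 9 lay below every control array (25.6% of all genes), and in replicate 2, 7 of the 9 lay above every control array (21.1% of all genes). Of the 28 classical genes, 7 lay below every control array in replicate 1 and 15 above every control array in replicate 2. Replicate 2 was thus high in both classes, and replicate 1 set them apart. Set against the control mean, the class median stood at -0.32 and 0.28 in MSI2-inducible replicates 1 and 2, against 0.04, 0.06 and -0.03 in control replicates 1, 2 and 3. For the classical class it was 0.38 and 0.32 in MSI2-inducible replicates 1 and 2, against 0.01, 0.01 and -0.02 in control replicates 1, 2 and 3. The median difference between genotypes was thus -0.00046 for 9 gamma-responsive genes and 0.37 for 28 classical genes. Both MSI2-inducible arrays lay above all controls in 1 gamma-responsive gene (11.1%) and 13 classical genes (46.4%), against 9.27% of all genes, so the gamma-responsive share was near that of all genes. They lay below all controls in 1 gene of each class.

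**Figure D3:**
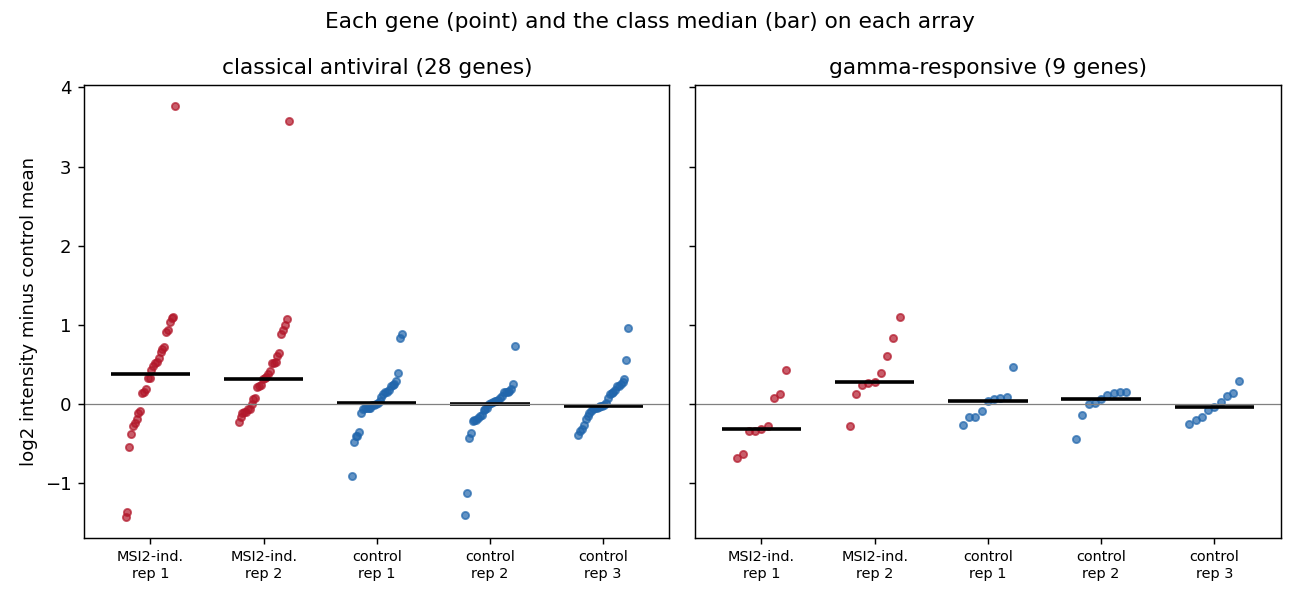
Log2 intensity of each gene minus its control mean (points) and the class median (bars) on each array, for 28 classical antiviral and 9 gamma-responsive genes. The classical medians are 0.38 and 0.32 on the MSI2-inducible arrays, and the gamma-responsive medians are -0.32 and 0.28.

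The GTPases of this class attack the vacuoles of intracellular parasites. In 4 of these 5, and in 2 classical genes, replicate 2 exceeded replicate 1 by at least 0.9, which held for 5.03% of all genes. Gbp3 read 8.68 and 9.70 in MSI2-inducible replicates 1 and 2, against 9.05, 9.47 and 9.42 in control arrays. Gbp2 read 8.22 and 9.37 in MSI2-inducible arrays, against 8.38, 8.40 and 8.83 in control arrays. In both genes, all control values lay between the MSI2-inducible values. Igtp, also called Irgm3, read 8.58 and 9.54 in MSI2-inducible arrays, against 9.17, 9.32 and 9.28 in control arrays. Iigp1 read 8.59 and 9.61 in MSI2-inducible arrays, against 8.35, 8.53 and 8.65 in control arrays. Igtp followed the pattern of Gbp3, while Iigp1 in replicate 1 lay among the controls. Second probe sets did not all repeat this. That of Gbp2 read 8.06 and 7.51 in MSI2-inducible arrays, against 6.92 to 7.46 in control arrays, with replicate 1 the higher. That of Iigp1 read 7.72 and 8.02 against 7.02 to 7.19, with both replicates above the controls. Irgm1, a regulator of the other Irg proteins, overlapped between groups at a difference of 0.52, or 0.30 without control replicate 2.

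The antigen processing genes were bright and close together. Psmb8 and Psmb9 are immunoproteasome subunits, and Tap1 is part of the pump that carries peptides to class I molecules. Psmb9 read 11.89 and 12.43 in MSI2-inducible replicates 1 and 2, against 12.23, 12.15 and 12.09 in control arrays, so the controls lay between. Psmb8 differed by -0.10 (95% interval -0.65 to 0.44). Tap1 differed by -0.31 (95% interval -0.79 to 0.17) and was the second gene to lie below all control arrays on both MSI2-inducible arrays, though the mean with its 3 dimmer probe sets differed by -0.09. Neutrophil markers ran the other way, with 10 of 10 higher in MSI2-inducible replicate 1 than in replicate 2, and 7 of 7 erythroid markers did likewise, while 8 of 8 stem and progenitor markers were lower in replicate 1. The part of these cells in the gap was not tested.

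**Figure D4:**
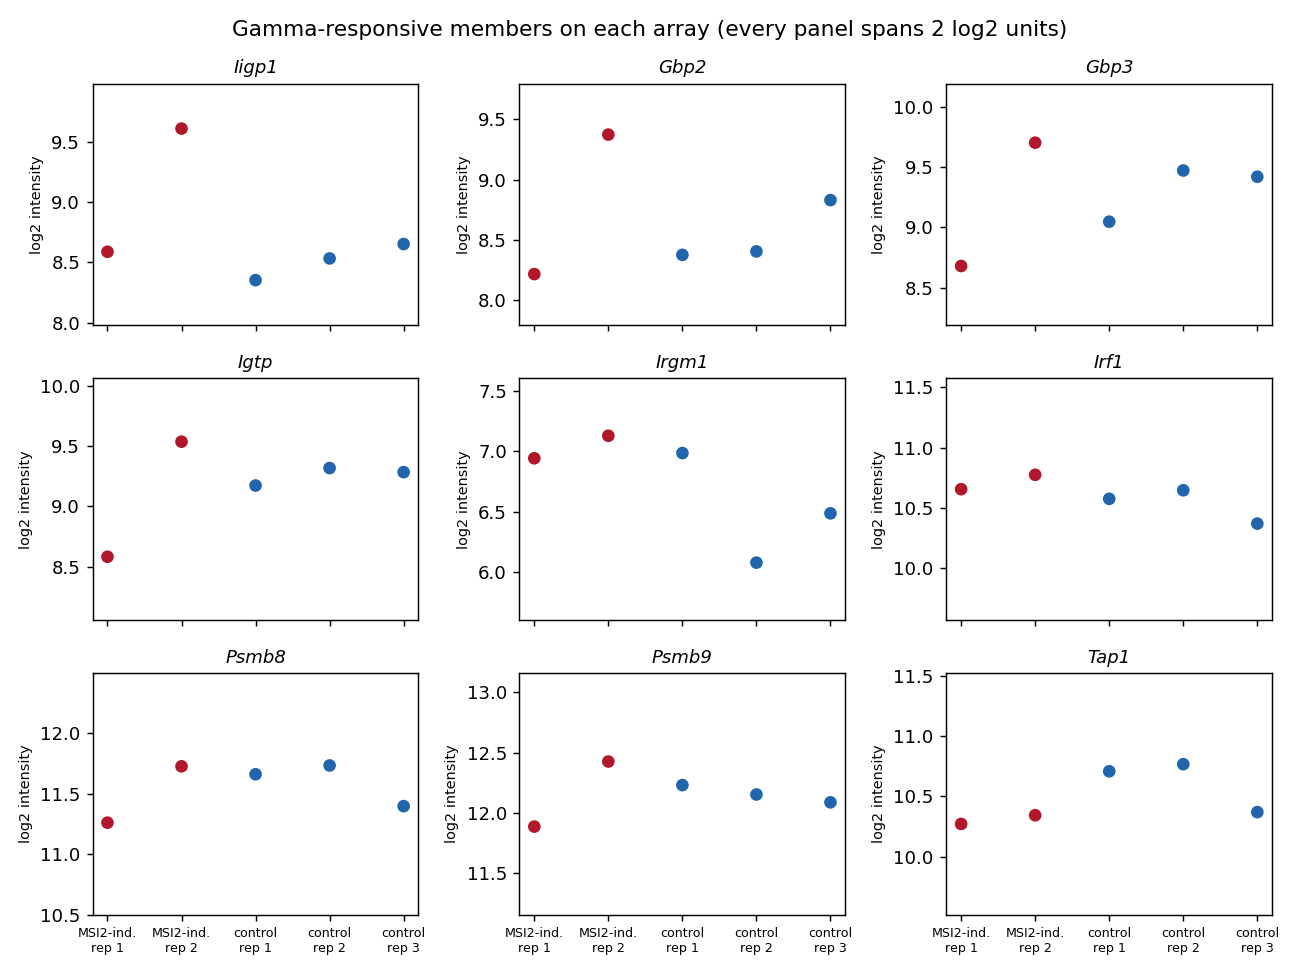
Log2 intensity of the 9 gamma-responsive genes on each array, with every panel spanning 2 log2 units. In Gbp2, Gbp3, Igtp and Psmb9 the blue control points lie between the 2 red MSI2-inducible points.

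Upstream of these genes, none of the measured interferons or receptors passed the test. The 4 receptor chains were all lower on average, with differences of -0.15 for Ifnar1, -0.27 for Ifnar2, -0.46 for Ifngr1 and -0.05 for Ifngr2, and each overlapped between groups. Their 95% folds ran from 0.459 to 1.37. Of 5 measured interferon genes, 4 were dimmer than the median probe set in both groups, so their differences (0.02 to 0.48) say little. Brakes of the pathway (6 measured) differed by -0.12 to 0.65, and sensing genes (11 measured) by -0.20 to 1.01, with 10 of the 11 higher and 0 at an unadjusted limma p under 0.05.

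Of 30 further interferon-induced genes measured, 22 were higher and 8 lower, with a median difference of 0.07, and 0 passed limma's test over all genes. At an unadjusted p under 0.05, 3 of the 30 (10%) were higher and 0 lower, against 2.87% and 2.77% of all genes. The chemokine Cxcl10 read 8.29 and 7.41 in MSI2-inducible arrays, against 5.94, 5.12 and 5.48 in control arrays, a difference of 2.34 (limma adjusted p 0.318). The GTPase Gbp6, of the Gbp family but outside the 9 gamma-responsive genes, read 6.89 and 6.92 against 6.03, 5.21 and 5.32. Its difference was 1.39 (limma adjusted p 0.546). Both stood clear of the control arrays, and the dimmer chemokine Cxcl9, with a difference of 1.41, did so narrowly (5.24 and 5.87 against 3.45, 5.16 and 3.83).

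Genes that cells switch on within minutes of stimulation or heat were also compared, and 0 of 34 immediate early and heat shock genes passed limma's test over all genes. On average 33 of them were higher, against 50.4% of all genes, and 22 had an unadjusted limma p under 0.05 (2.87% of all genes). Both MSI2-inducible arrays lay above the controls in 26 of them (76.5%), against 9.27% of all genes. Their mean level was 10.33 and 9.94 in MSI2-inducible arrays, against 8.77 to 9.26 in control arrays. Markers of plasmacytoid dendritic cells, the main producers of type I interferon, had a mean level of 7.04 and 6.98 against 6.91 to 7.10, with Siglech, their defining surface receptor, at 5.88 and 5.51 against 5.48 to 5.83. Bst2 is a member of that list as well. Of the B cell markers 4 of 7, and of the T and NK cell markers 7 of 9, were dimmer than the median probe set in both groups. Some brighter markers of other cells lay above all control arrays on both MSI2-inducible arrays, without passing the test. They included Vpreb1 of B cell precursors (9.03 and 8.87 against at most 8.36). Also among them were Ccl5 of T and NK cells (6.86 and 6.57 against 4.61 to 5.49) and Ccr2 of monocytes. Ccr2 read 8.50 and 8.09 against 6.38 to 6.78. The erythroid markers Epor (8.30 and 7.89 against 6.57 to 7.24) and Car1 (11.47 and 10.52 against 9.22 to 10.45) did likewise. Dim ones included, such markers were 1 of 7 for B cells (14.3%) and 2 of 9 for T and NK cells (22.2%). They were 1 of 10 for macrophages and monocytes (10%) and 2 of 7 for erythroid cells (28.6%), against 9.27% of all genes. Lower on average were 3 B cell, 4 T and NK cell and 2 macrophage and monocyte markers. Of 7 measured erythroid markers, 5 were higher and 2 lower on average, with Gata1 below all control arrays on both MSI2-inducible arrays. The 10 macrophage and monocyte markers had a mean level of 6.91 and 5.92 in MSI2-inducible arrays, against 6.02 to 6.26 in control arrays. The part of these and of stimulated cells in the interferon differences was not tested.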

How the data were processed

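Total RNA of sorted bone marrow cells was amplified linearly, biotin-labelled and hybridised to Affymetrix mouse expression arrays, per the labels' protocols. The authors deposited 1 linear intensity per probe set and array, and the submitters' processing notes name RMA, affy and R 2.11.0. How RMA's log values were made linear is not stated. The deposited intensities were used as they are, after log2 without a pseudocount. Array medians lay between 46.4 and 48.3 intensity units. The number of arrays limits precision. Symbols came from the platform annotation, updated by Entrez ID through the GRCm38.p6 gene table (34741 of 34945 probe sets with 1 symbol matched, 932 had several, and 9224 of 45101 were unnamed here or control probe sets).

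A model with group as its only term was fitted with lmFit and eBayes (limma 3.58.1, R 4.3.3) over 18193 genes, two-sided, with Benjamini-Hochberg adjustment over all genes. The fit was tested on simulated data. Values on every array are given for genes with an unadjusted p under 0.05 or a difference of at least 1, and for the gene with the highest mean in each role. Others named were chosen after their values were seen. The members, classes, lists and motifs were chosen with earlier results of these data known. As alternatives, probe sets were averaged or tested singly, dim genes dropped, arrays renormalized, weighted, blocked or left out, and the variance model and threshold changed. Promoters are RefSeq's. Figures were drawn with matplotlib 3.10.9.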

Additional observations from a re-analysis of the deposited data

How the results depend on the processing

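Of 478 recomputed differences of the 37 genes under 13 alternative settings, 444 kept direction and side of the threshold, 26 turned and 8, all of Ifi44l, lost the call. The 1 called gene became 0 with every probe set on its own, array weights and the replicate block (Ifi44l differences 3.67, 3.73 and 3.75, adjusted p 0.0651, 0.0773 and 0.160), and 0 to 0 with an array left out. Genes at an unadjusted p under 0.05 numbered 11 higher with the mean of probe sets, 4 higher with the replicate block, 4 to 8 higher with an array left out (4 without control replicate 3) and 0 to 3 lower (3 without MSI2-inducible replicate 2). Genes above all controls numbered 22 without MSI2-inducible replicate 1 (left-out arrays 15 to 22), where 21.1% of all genes did so. Genes below all controls numbered 13 without MSI2-inducible replicate 2, where 25.6% of all genes did so. They numbered 0 with the mean of probe sets and 5 without control replicate 1 (left-out arrays 2 to 13). With fewer arrays the criterion is easier to meet, so these counts do not compare with those over all 5 arrays. The median of all 37 genes was 0.16 without MSI2-inducible replicate 2 (left-out arrays 0.16 to 0.31), that of the classical class 0.34 with the mean of probe sets, 0.30 with array weights and 0.24 without control replicate 2 (left-out arrays 0.24 to 0.38), and that of the gamma-responsive class 0.28 without MSI2-inducible replicate 1 and -0.32 without replicate 2 (left-out arrays -0.32 to 0.28). With the mean of probe sets Rsad2 (0.43), Ifi35 (0.042), Rtp4 (0.20), Psmb8 (0.059) and Ifngr2 (0.18) turned direction, with array weights Mx1 (-0.022) and with the replicate block Irf7 (-0.047). Irf7 (-0.11 to 0.33), Ifih1 (-0.11 to 0.074), Ifit1 (-0.24 to 0.31), Oas1a (-0.23 to 0.73), Mx1 (-0.10 to 0.16), Rsad2 (-0.19 to 0.059), Ifi35 (-0.27 to 0.23), Rtp4 (-0.14 to 0.15), Gbp2 (-0.32 to 0.84), Gbp3 (-0.63 to 0.39), Igtp (-0.68 to 0.28), Psmb8 (-0.34 to 0.13), Psmb9 (-0.27 to 0.27) and Ifngr2 (-0.29 to 0.19) turned with some array left out. None of these passed the test, and the cause was not tested. Leaving out an MSI2-inducible array leaves the other with the spread of the controls as an assumption. The replicate block was fitted on replicates 1 and 2 alone, so control replicate 3 was left out of it. Its differences for Ifi44l (3.75) and Irf7 (-0.047) equalled those without control replicate 3. The replicate block changed no other call. Nothing in the labels pairs the arrays, and deviations of same-numbered arrays correlated at 0.134 and 0.099 over only 2 pairs. Signal near the floor limits Ifi44l, Mx1, Mx2, Oasl1 and the interferon genes.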

Other observations

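A probe set annotated to both Isg15, the ubiquitin-like protein that Usp18 removes, and Gm9706 read 7.17 and 6.44 in MSI2-inducible replicates 1 and 2, against 6.54, 6.26 and 5.90 in control replicates 1, 2 and 3. The groups overlapped, and the probe set cannot be assigned to one gene. The spread of the interferon genes among control arrays was like that of all genes, with a median SD of 0.222 and 0.217. It exceeded 0.5 in 4 of them (10.8%) and in 12.2% of all genes, and the 4 were Usp18, Oasl1, Dhx58 and Zbp1. Of 60 probe sets of the 37 genes, 40 were higher and 20 lower in MSI2-inducible arrays, and in 9 of 16 genes with more than 1 probe set they pointed in both directions.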
